A study of Mus musculus with 12 samples.

Results

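A group of 10 proteases of the ADAMTS family (a disintegrin and metalloproteinase with thrombospondin motifs) was followed through the remodeling vein of mice with an arteriovenous fistula (AVF). The members were Adamts1, Adamts2, Adamts4, Adamts5, Adamts6, Adamts7, Adamts8, Adamts9, Adamts12 and Adamts16, found by symbol among the 55414 genes of the count table. All 10 members were in the table and passed the filter on low values, which asked for over 1 CPM in at least 2 samples (CPM, the counts of a gene per 1000000 counts of the library). Transcripts of the inferior vena cava (IVC) were measured by poly-A RNA sequencing in 6 AVF mice and 6 sham mice on postoperative day 7, each with 3 females and 3 males. All were wild-type C57BL/6J mice aged 10 weeks, and 1 library was made per mouse. In the AVF group a needle was passed from the aorta into the IVC below the kidneys, so that arterial blood entered the vein. The sham group had the same laparotomy and clamping without the puncture. The tissue was a length of whole vein, so the libraries hold every cell type of the wall and of what adhered to it.

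ADAMTS proteases are secreted zinc enzymes that cut the matrix around cells. They are made as precursors with a propeptide that a proprotein convertase such as furin removes. They find their substrates through thrombospondin repeats and other ancillary domains. Branches of the family are known for different substrates: Adamts2 trims the N-propeptide from fibrillar procollagens, Adamts1, Adamts4, Adamts5, Adamts8 and Adamts9 belong to the proteoglycan-cutting branch, Adamts7 and Adamts12 cut cartilage oligomeric matrix protein (COMP), Adamts6 acts on microfibrils, and Adamts16 cuts fibronectin.

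As proteases the members share a zinc-binding site, in which 3 histidines hold the metal. The coding bases of this site are shown for the 5 members that passed the test in AVF against sham and for Adamts1, the closest relative of Adamts4 at this site, to show how near the members are to each other in the part that makes them proteases. The bases were read from the GRCm39 genome along the Ensembl canonical transcripts of GENCODE M39, 5′ to 3′ on the coding strand, and the capitals mark the 3 histidine codons.
Adamts12: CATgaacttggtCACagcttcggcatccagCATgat
Adamts7: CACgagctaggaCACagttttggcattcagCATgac
Adamts2: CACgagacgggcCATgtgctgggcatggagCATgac
Adamts6: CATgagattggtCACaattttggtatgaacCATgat
Adamts4: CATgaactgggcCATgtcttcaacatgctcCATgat
Adamts1: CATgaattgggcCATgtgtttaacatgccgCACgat
Adamts12 and Adamts7 shared 28 of these 36 bases, and the standard genetic code gave the same residue at 12 of 12 positions. Adamts1 and Adamts4 shared 30 of 36 bases. The closest pair of all was Adamts1 and Adamts9, with 31 of 36. In every member an intron interrupted the site, at 1 of 2 places. In Adamts1, Adamts4, Adamts5 and Adamts8, 4 proteoglycan-cutting members, the upstream exon held 10 bases of the site and the next exon 26. In the other 6 members the split was 17 and 19 bases. Of the first set 1 of 4 members was higher in AVF and of the second 4 of 6, against 8.63% of all genes tested. A link between the split and the change after AVF was not tested. In Adamts12, for example, exon 7 held 17 bases at chr15:11241615-11241631 and exon 8 held 19 bases at chr15:11255635-11255653.

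Library totals ran from 15177881 to 22717423 estimated counts, and 3 counts, the level taken as the limit of detection, were worth 0.127 to 0.324 normalized CPM. AVF sample #07 stood apart in ribosomal RNA, with 46% of its counts against 2.39% to 12.6% in the others. AVF samples #05 and #09 stood apart in liver transcripts: Alb, the gene of albumin, was at 1853 CPM in #05 and 5594 CPM in #09 and at most 2.67 CPM in the other 10 samples. Values without both samples are given for each member, and for each list below where a call was lost. Markers of the vein wall were present in every library, with summed levels of 7 smooth muscle genes between 2376 and 4975 CPM and of 7 endothelial genes between 1232 and 2107 CPM.

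In the comparison of the operations, 5 of the 10 ADAMTS genes were higher after AVF than after the sham procedure, and 0 were lower. They were Adamts12, Adamts2, Adamts7, Adamts4 and Adamts6, at an adjusted p under 0.05 in edgeR's quasi-likelihood test with Benjamini-Hochberg adjustment over 15912 genes. Of all genes tested, 8.63% were higher and 5.13% lower by the same rule. Adamts12, Adamts7 and Adamts4 were also at least 2-fold higher, so that 3 members counted as differentially expressed genes (DEG), against 3.37% of all genes. This count rests partly on sham sample #18: without it 5 members were DEG, since Adamts2 (log2 fold change 1.07) and Adamts6 (1.08) then passed 2-fold. The fitted log2 fold change was above 0 for all 10 members, with a median of 0.99 against -0.01 over all genes. Without samples #05 and #09, 5 members were again higher and 0 lower, with a median of 1.02. Because the libraries are of whole tissue, more cells of a type and more RNA per cell cannot be told apart.

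**Figure D1:**
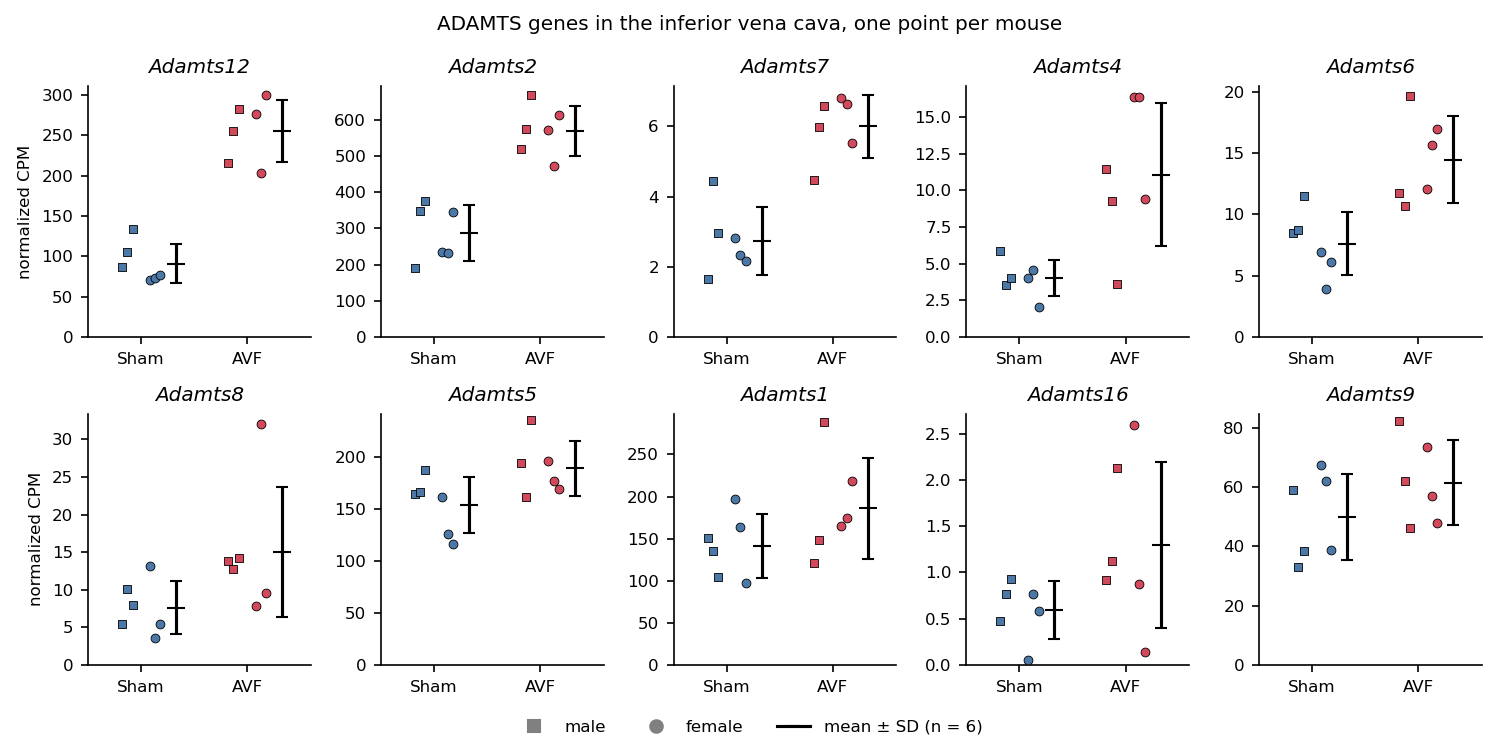
Normalized CPM (vertical axes, from 0) of each ADAMTS gene in the 6 sham and 6 AVF mice, with squares for male and circles for female mice and a bar for the mean ± SD of 6. The 6 AVF points lie above all 6 sham points for Adamts12, Adamts2 and Adamts7, and the points overlap for the other 7 genes.

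**Figure D2:**
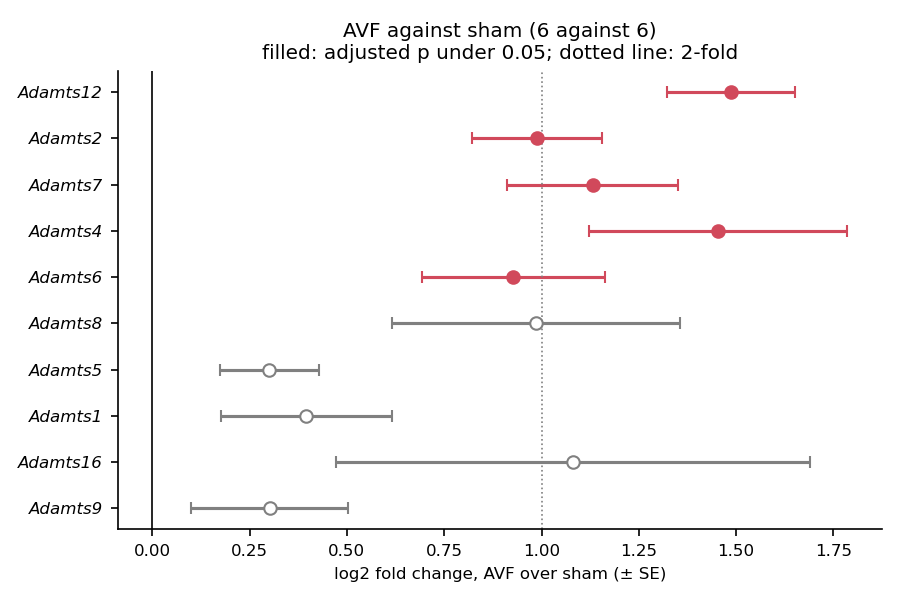
Log2 fold change of AVF over sham with its standard error (horizontal axis) for the 10 ADAMTS genes, ordered by adjusted p, with filled points for an adjusted p under 0.05 and a dotted line at 2-fold. All 10 points lie above 0, from 0.30 for Adamts5 and Adamts9 to 1.49 for Adamts12.

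Both members of the COMP-cutting pair were higher in AVF. Adamts12 (chr15:11064876-11349318, plus strand) had the lowest adjusted p of the family. Its level in the sham group was 71.2 CPM at the lowest, 81.9 at the median and 133 at the highest, and in the AVF group 203, 266 and 299. The groups did not overlap. The means were 91.1 ± 24.2 CPM in sham and 255 ± 38.6 CPM in AVF (SD, n = 6), and the log2 fold change was 1.49 (SE 0.16, adjusted p = 0.000281 by edgeR). Without samples #05 and #09 it was 1.56. Adamts7 (chr9:90045062-90090124, plus strand), which is also known for its part in the migration of vascular smooth muscle cells, was present at low counts. It ran from 1.66 through a median of 2.58 to 4.44 CPM in sham and from 4.46 through 6.28 to 6.80 CPM in AVF. The groups did not overlap, but the gap between them was small: the lowest AVF value (#04, 4.46 CPM) and the highest sham value (#17, 4.44 CPM) were almost equal. Its log2 fold change was 1.13 (SE 0.22, adjusted p = 0.00644 by edgeR), on 35 to 145 counts per library, and 1.09 without #05 and #09. The gene of their shared substrate, Comp, lay between 6.76 and 20.5 CPM in AVF and between 7.12 and 22.6 CPM in sham.

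The procollagen N-proteinase Adamts2 (chr11:50492787-50698400, plus strand) had the highest level per kilobase of the family in both groups. In sham it was 192 CPM at the lowest, 289 at the median and 375 at the highest, and in AVF 472, 572 and 669. Every AVF sample was above every sham sample. The log2 fold change was 0.99 (SE 0.17, adjusted p = 0.00305 by edgeR), just under the 2-fold line, and 1.05 without #05 and #09, just over it. Adamts2, Adamts7 and Adamts12 were the 3 members without overlap between the groups, where 4.55% of all genes tested had every AVF sample above every sham sample.

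The sham values of Adamts2 fell into a low and a high set, with #16, #19 and #22 at 192, 234 and 231 CPM and #17, #18 and #23 at 347, 375 and 344 CPM. The same 3 low samples had the highest summed level of 7 brown fat markers, at 929, 1818 and 1252 CPM against 119 to 566 CPM in the other sham samples and 49.2 to 337 CPM in AVF. Of these 7 markers, 3 (Cox7a1, Cidea and Cox8b) were lower in AVF, and 2 without #05 and #09. None was at 0 in all libraries. The summed level of 6 white adipocyte markers split the sham samples in the same way. It was 5522, 7095 and 6485 CPM in #16, #19 and #22, against 2733 to 3904 CPM in the other sham samples. In AVF this sum ran from 3036 to 6809 CPM. It was highest there in #09 and #04 (6809 and 5427 CPM), the AVF samples lowest in Adamts2 (472 and 520 CPM). The part of brown or white fat in the Adamts2 difference was not tested.

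Adamts6 (chr13:104424343-104633203, plus strand), a partner of Adamts10 in the control of fibrillin microfibrils, was present at low levels. The sham samples lay at 3.94, 7.71 and 11.5 CPM (lowest, median, highest) and the AVF samples at 10.7, 13.9 and 19.7 CPM. The ranges overlapped through 1 sham sample, #18, which exceeded the lowest AVF sample, #05. Adamts6 rose by a log2 fold change of 0.93 (SE 0.23, adjusted p = 0.0233 by edgeR), or by 1.00 without #05 and #09.

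Among the proteoglycan-cutting members, Adamts4 was higher in AVF and the other 4 did not pass the test. Adamts4 (chr1:171077986-171089841, plus strand), an aggrecanase that also cuts versican, ran from 2.08 through 4.04 to 5.87 CPM in sham and from 3.62 through 10.4 to 16.4 CPM in AVF. In AVF, 5 samples lay above every sham sample, and AVF sample #06 lay within the sham range at 3.62 CPM. The log2 fold change was 1.45 (SE 0.33, adjusted p = 0.0155 by edgeR), the largest SE among the 5 called members. Without samples #05 and #09 it was 1.33 (adjusted p = 0.0451).

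Adamts8 (chr9:30853809-30875134, plus strand) had nearly the same fitted change as Adamts2 but a much wider spread. It was 3.52, 6.70 and 13.1 CPM in sham and 7.88, 13.3 and 32.0 CPM in AVF (lowest, median, highest). The highest value was that of AVF sample #09, one of the pair with liver transcripts, and the other 5 AVF samples reached at most 14.2 CPM. The log2 fold change was 0.99 (SE 0.37, adjusted p = 0.0902 by edgeR) over all samples, 0.62 (adjusted p = 0.18) without #09, and 0.59 (adjusted p = 0.269) without #05 and #09. The exact test of edgeR (adjusted p = 0.0471) and DESeq2 (adjusted p = 0.0338) called it higher when all 12 samples were used.

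Adamts1 and Adamts5 lie next to each other on chromosome 16, 53.1 kb apart, at chr16:85590579-85600009 and chr16:85653061-85698716 on the minus strand. Both were abundant, and neither passed the test. Adamts1, which cuts versican and aggrecan, was 97.0, 143 and 197 CPM in sham and 121, 170 and 289 CPM in AVF (lowest, median, highest), with a log2 fold change of 0.40 (SE 0.22, adjusted p = 0.238). Adamts5, the other main aggrecanase, was 116, 163 and 187 CPM in sham and 161, 185 and 235 CPM in AVF. It had the smallest standard error of the family, and its log2 fold change was 0.30 (SE 0.13, adjusted p = 0.127). Without #05 and #09 the values were 0.49 for Adamts1 and 0.38 for Adamts5, neither called. The groups overlapped for both genes, and AVF sample #06 was the highest for both.

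Adamts9 (chr6:92749680-92920520, minus strand), a versican-cutting member, did not pass the test. It was 33.1, 49.0 and 67.4 CPM in sham and 46.3, 59.4 and 82.2 CPM in AVF, with a log2 fold change of 0.30 (SE 0.20, adjusted p = 0.329), or 0.32 without #05 and #09. Adamts16 (chr13:70875915-70989935, minus strand) was close to the limit of detection, on 1 to 47 counts per library. Its levels of 0.0523, 0.672 and 0.932 CPM in sham and 0.141, 1.02 and 2.59 CPM in AVF overlapped. By CPM of the unscaled library, the measure of the filter, it exceeded 1 CPM in 3 AVF samples and 1 sham sample. Its log2 fold change was 1.08 (SE 0.61, adjusted p = 0.245), or 1.22 without #05 and #09, and neither was called.

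Levels of different genes were compared after division by the length of the canonical transcript, as normalized CPM per kilobase. In the sham group the order from the highest mean was Adamts2 (39.04 ± 10.5), Adamts1 (28.1 ± 7.49), Adamts5 (14.2 ± 2.50), Adamts12 (10.6 ± 2.83), Adamts9 (6.18 ± 1.81), Adamts8 (2.07 ± 0.96), Adamts6 (1.14 ± 0.39), Adamts4 (0.92 ± 0.28), Adamts7 (0.50 ± 0.18) and Adamts16 (0.12 ± 0.062), each the mean ± SD of 6. Several neighbours in this order were not separated by the spread between mice. Adamts2 was above Adamts1 in only 3 of 6 sham mice, and Adamts6 above Adamts4 in 4 of 6.

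Adamts12 changed its place in this order. In the AVF group the means were 77.4 ± 9.34 per kilobase for Adamts2, 37.0 ± 11.9 for Adamts1, 29.8 ± 4.50 for Adamts12 and 17.5 ± 2.46 for Adamts5. Adamts5 exceeded Adamts12 in 6 of 6 sham mice, and Adamts12 exceeded Adamts5 in 6 of 6 AVF mice. Adamts12 and Adamts1 were not separated in AVF, where Adamts1 was the higher in 4 of 6 mice. Below them came Adamts9, Adamts8, Adamts4, Adamts6, Adamts7 and Adamts16. Adamts4 and Adamts6 stood in the other order in AVF than in sham, in 4 of 6 mice, and this exchange was lost when all annotated exons were taken as the length.

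The sum of the 10 members was 102.9 ± 9.91 per kilobase in sham and 179 ± 22.6 in AVF (SD, n = 6), with no overlap between 93.3 to 115 in sham and 157 to 218 in AVF. Adamts12 made up 10.3% ± 2.04 of this sum in sham and 16.6% ± 1.58 in AVF. The share of Adamts2 was 37.8% ± 8.93 and 43.2% ± 2.40, and that of Adamts1 27.5% ± 7.62 and 20.3% ± 4.02. These shares were not tested, and the shares of the members sum to the whole, so a larger share of 1 gene lowers those of the others.

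**Figure D3:**
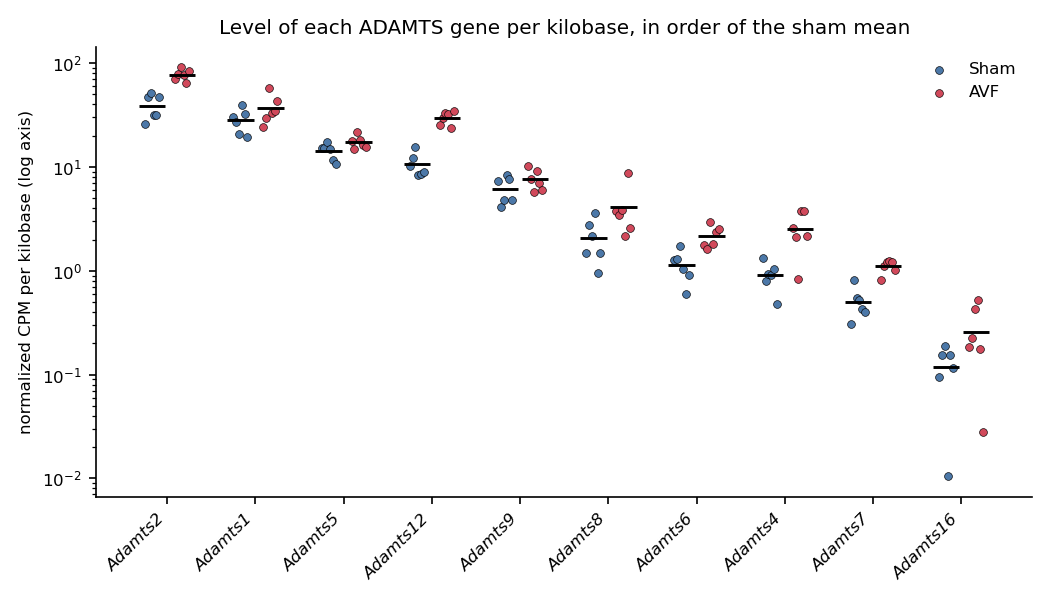
Normalized CPM per kilobase of canonical transcript (vertical log axis) of each ADAMTS gene in the order of the sham mean, with 1 point per mouse and a bar for the mean of 6. Adamts12 stands below Adamts5 in sham (10.6 against 14.2) and above it in AVF (29.8 against 17.5).

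To ask whether the change after AVF depended on sex, the operation-by-sex interaction was fitted over 22163 genes with over 12 counts in all. It passed the threshold for 0 members and for 0% of all genes, with 1069 genes at an unadjusted p under 0.05 in edgeR's quasi-likelihood test. Adamts12 was the 1 member among these: its log2 fold change after AVF was 1.78 (SE 0.18) in female and 1.22 (SE 0.18) in male mice. The difference of 0.57 (SE 0.25) had an unadjusted p of 0.0414 and an adjusted p of 0.96 in edgeR's quasi-likelihood test. The fitted change was larger in female mice for 8 of 10 members and larger in male mice for Adamts1 and Adamts9. This count was not tested, and the median interaction was 0.31 over the members and -0.003 over all genes. Of the female-minus-male log2 differences of the members, 2 of 10 were above 0 in sham (median -0.30) and 5 of 10 in AVF (median 0.009).

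Within female mice, 3 members (Adamts12, Adamts6 and Adamts4) were higher in AVF, against 1.6% of all genes. Within male mice only Adamts12 was, against 0.424% of all genes. Adamts4 rose by a log2 fold change of 1.94 (SE 0.44, adjusted p = 0.044 by edgeR) in female mice, and its value in male mice was 0.86 (SE 0.42, adjusted p = 0.405). The male value leans on AVF sample #06, at 3.62 CPM against 9.25 and 11.4 CPM in the other male AVF mice. Without #06 the female-minus-male log2 difference of Adamts4 in AVF was 0.42 in place of 0.77. Adamts6 rose by 1.37 (SE 0.29, adjusted p = 0.0323 by edgeR) in female mice, and its value in male mice was 0.56 (SE 0.28, adjusted p = 0.407). The difference between the sexes passed the test for neither gene, with an interaction of 1.08 (SE 0.60) for Adamts4 and 0.81 (SE 0.40) for Adamts6, both at an adjusted p of 0.96.

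**Figure D4:**
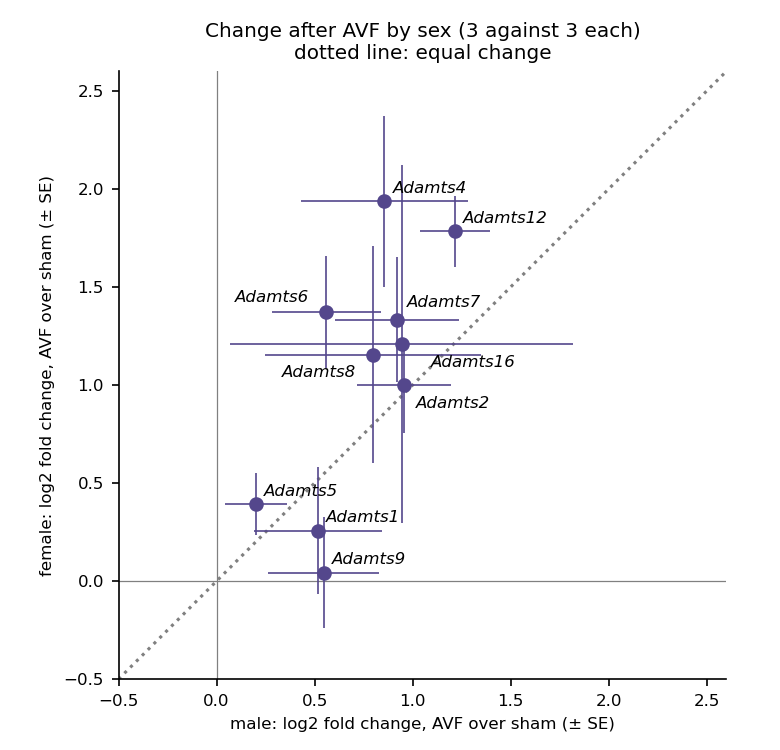
Log2 fold change of AVF over sham in male mice (horizontal axis) and in female mice (vertical axis), each with its standard error from 3 against 3 mice, with a dotted line for equal change. Adamts12 (1.22 and 1.78), Adamts4 (0.86 and 1.94) and Adamts6 (0.56 and 1.37) lie above the line, and the interaction passed the test for 0 of the 10 genes.

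The sexes were also compared directly, at an adjusted p under 0.05 and at least 1.5-fold. No ADAMTS gene passed in AVF mice, where 0.0226% of all genes did. There 0 members had an unadjusted p under 0.05 in edgeR's quasi-likelihood test, against 1005 of the 22163 genes. None passed in sham mice either, where 0.0451% of all genes did. In sham mice 2 members, Adamts12 and Adamts6, had an unadjusted p under 0.05 in the same test, against 1679 of the 22163 genes. In the sham veins Adamts12 was 71.2, 72.9 and 76.7 CPM in the 3 female mice and 87.1, 105 and 133 CPM in the 3 male mice. The sham sexes did not overlap. The female-minus-male log2 difference was -0.54 (SE 0.18, adjusted p = 0.557 by edgeR). Adamts6 was 3.94, 6.11 and 6.95 CPM in female and 8.47, 8.69 and 11.5 CPM in male sham mice, a log2 difference of -0.73 (SE 0.28, adjusted p = 0.62). Adamts5 was the other member with every female sham mouse below every male one, as was the case for 7.6% of all genes. In AVF veins 0 members were separated by sex in either direction, against 4.54% of all genes with every female below every male and 3.84% with every female above. There Adamts12 was 203, 277 and 299 CPM in female and 215, 256 and 282 CPM in male mice.

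The lists around the members were described in the same AVF against sham test, by counts and medians only. Of all genes tested, 8.63% were higher and 5.13% lower, with a median log2 fold change of -0.01. Of the 9 other ADAMTS proteases, 7 could be tested, and 4 were higher and 0 lower, with a median log2 fold change of 0.78. Adamts3, another procollagen N-proteinase, had a log2 fold change of 1.68 (SE 0.29, adjusted p = 0.00356), and ran from 2.14 to 3.20 CPM in sham and from 4.64 to 16.8 CPM in AVF. Adamts10, the microfibril partner of Adamts6, had 1.04 (SE 0.16, adjusted p = 0.00189). Adamts17 had 1.14 (SE 0.30, adjusted p = 0.0268). Adamts15, a proteoglycan-cutting enzyme whose gene lies 19.9 kb from Adamts8, had 0.78 (SE 0.21, adjusted p = 0.0291). Among the 7 ADAMTS-like proteins, which share the ancillary domains but lack the protease, 1 was higher and 0 lower, and the median was 0.09. That gene was Adamtsl2, which binds microfibrils and latent TGF-β binding protein. Its values were 1.81 to 4.56 CPM in sham and 16.1 to 25.5 CPM in AVF, with a log2 fold change of 2.75 (SE 0.27, adjusted p = 0.000156).

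Genes on the lists of substrates and associated matrix components moved mostly upward. Of 17 genes on the collagen and glycoprotein list, 13 were higher and 0 lower, against 8.63% and 5.13% of all genes tested. The median log2 fold change of the 17 was 1.19. The 4 with the lowest adjusted p were Mfap5 (1.64, SE 0.17), a microfibril component, Fn1 (1.75, SE 0.21), which encodes fibronectin, Fbn2 (2.59, SE 0.31), a fibrillin, and Col5a2 (1.47, SE 0.18), a chain of type V collagen. Of 8 proteoglycan substrates, 6 passed the filter through samples of both groups, and 4 of these were higher and 0 lower, with a median of 1.19. Vcan, the gene of versican, ran from 47.5 to 88.3 CPM in sham and from 133 to 225 CPM in AVF, with a log2 fold change of 1.37 (SE 0.17, adjusted p = 0.000543). Bgn (1.24, SE 0.19), the gene of biglycan, and Prg4 (1.38, SE 0.34), that of lubricin, were also higher. The other 2 passed only through the group where they were high, so their calls (Acan higher, Bcan lower) are no support for the list. Acan, the gene of aggrecan, was 0 to 0.382 CPM in sham, near the limit of detection, and 0.54 to 1.65 CPM in AVF. Bcan, the gene of the brain proteoglycan brevican, was 2.20, 3.03 and 3.88 CPM in the female sham mice, while the male sham mice (0.142 to 0.907 CPM) lay within the AVF range (0.0572 to 1.08 CPM). Without samples #05 and #09, Prg4 (adjusted p = 0.0521) and Bcan (adjusted p = 0.131) were not called.

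Partners of the proteases were less uniform, in counts to be read against the same shares of all genes (8.63% higher and 5.13% lower). The list of inhibitors and clearance also held Ctsk, the gene of a protease. Of its 7 tested genes, 3 were higher and 0 lower, with a median of 0.46. These were Timp1 (1.45, SE 0.27, adjusted p = 0.00494), an inhibitor of metalloproteinases, Lrp1 (0.61, SE 0.15, adjusted p = 0.0224), an endocytic receptor that clears Adamts4 and Adamts5, and Ctsk (0.57, SE 0.17, adjusted p = 0.0424), the cysteine protease cathepsin K. Without #05 and #09, 2 of the 7 were higher and Ctsk was not (adjusted p = 0.0638). Timp3, the main tissue inhibitor of ADAMTS proteases, was not called, with a log2 fold change of 0.22 (SE 0.11, adjusted p = 0.188) and levels of 943 to 1214 CPM in sham and 1037 to 1533 CPM in AVF. Of 7 maturation enzymes, 3 were higher and 0 lower, with a median of 0.29. They were the convertase Pcsk5 (0.77, SE 0.19, adjusted p = 0.0202) and the enzymes that glycosylate thrombospondin repeats, Pofut2 (0.50, SE 0.12, adjusted p = 0.0184) and B3glct (0.29, SE 0.085, adjusted p = 0.0407). Without #05 and #09, 2 of the 7 were higher and B3glct was not (adjusted p = 0.0557). Of 5 tested procollagen processing genes, 1 was higher and 1 lower. The median was -0.30 over the 5 and 0.12 over the 4 that passed the filter through both groups. Bmp1, the procollagen C-proteinase, had 0.83 (SE 0.17, adjusted p = 0.00815), and its relative Tll1 had -1.04 (SE 0.17, adjusted p = 0.00257).

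**Figure D5:**
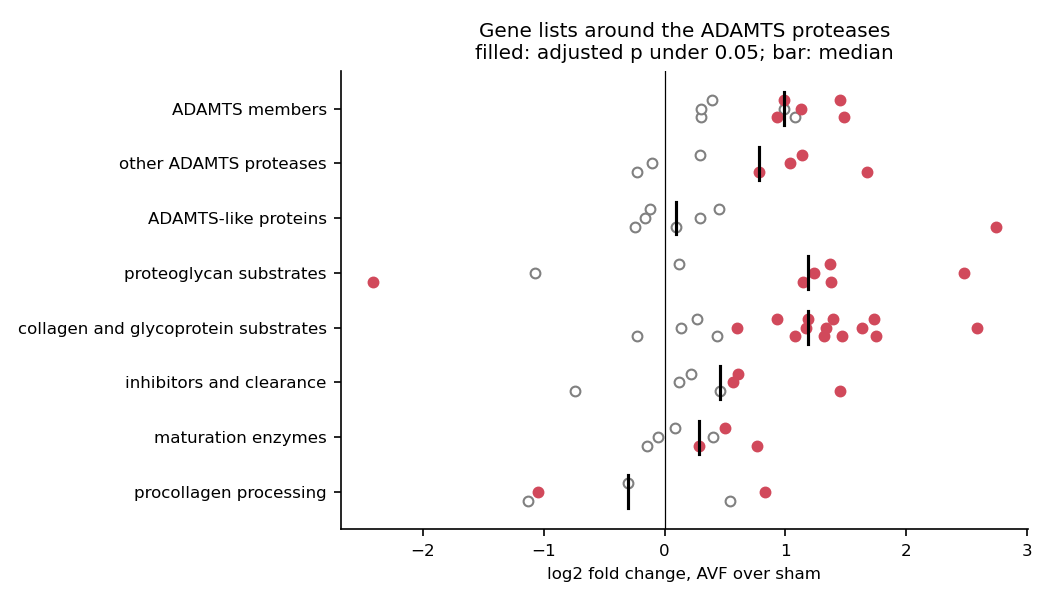
Log2 fold change of AVF over sham (horizontal axis) for each tested gene of the ADAMTS members and of the 7 lists around them, with filled points for an adjusted p under 0.05 and a bar at each list's median. The medians are 0.99 for the members, 1.19 for both substrate lists, 0.78 for the other ADAMTS proteases, and 0.09 for the ADAMTS-like proteins. Acan and Bcan, the outermost points of the proteoglycan list, passed the filter through 1 group only.

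Markers of cell types were read in the same test, since several of these cells make ADAMTS proteases. Over all genes tested, 8.63% were higher in AVF and 5.13% lower. Of 6 fibroblast markers, 4 were higher in AVF (3 without #05 and #09), and their summed level was 3217 to 5450 CPM in sham and 4814 to 5847 CPM in AVF. Of 7 macrophage markers, 6 were higher, with sums of 554 to 919 CPM and 1072 to 1734 CPM. All 6 proliferation genes were higher, with sums of 42.7 to 79.9 CPM and 174 to 333 CPM. Of the smooth muscle, endothelial, T cell, B cell, white adipocyte, Schwann cell and striated muscle lists, 0 genes were called, and 1 of 7 sympathetic neuron markers, Elavl4, was lower (0 without #05 and #09). Of 8 hepatocyte markers, 5 passed the filter only through #05 and #09, where they were high, and could not be tested without them. Of the other 3, Alb and Ahsg were higher with all samples and 0 without #05 and #09. The part of these cells in the ADAMTS differences was not tested.

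Over the 12 samples, the genes most like Adamts12 by Pearson's r of log2 CPM were Col5a2 (0.98), Fstl1 (0.977) and Ccn4 (0.976). Those most like Adamts2 were Mmp2 (0.989), Col5a1 (0.988) and Col6a2 (0.987), and those most like Adamts7 were Atp8b2 (0.952), Col8a2 (0.941) and Sfrp1 (0.936). Atp8b2 encodes a lipid flippase, and the products of the others are collagens or other secreted proteins. The coefficients span both groups, so they contain the difference between AVF and sham, and they are given as a description with no test. Within the 6 AVF samples they were 0.653, 0.72 and 0.659 for Adamts12, 0.828, 0.967 and 0.887 for Adamts2, and 0.273, 0.532 and 0.461 for Adamts7, in the same order of genes. Within the 6 sham samples they were 0.914, 0.883 and 0.881 for Adamts12, 0.988, 0.952 and 0.963 for Adamts2, and 0.937, 0.827 and 0.883 for Adamts7.

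The members did not vary as a block from mouse to mouse. Deviations from the group means were positively correlated in 24 of 45 pairs of members over the 12 samples. The highest coefficients were between Adamts5 and Adamts6 (0.722), Adamts2 and Adamts12 (0.669) and Adamts6 and Adamts12 (0.665). The lowest was between Adamts2 and Adamts9 (-0.788): sham samples #16, #19 and #22, which were low in Adamts2, had 59.1, 67.4 and 62.0 CPM of Adamts9, above the 33.1, 38.5 and 38.9 CPM of #17, #18 and #23. The COMP-cutting pair Adamts7 and Adamts12 had 0.398 and the chromosome 16 neighbours Adamts1 and Adamts5 had 0.289. For some pairs the groups had opposite signs that the pooled value hides. Adamts1 and Adamts9 had -0.899 within AVF and 0.797 within sham (0.0147 over both), and Adamts1 and Adamts2 had 0.695 and -0.769. The points share libraries and depth, no share of positive pairs among other genes was taken, and these values carry no test.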

How the data were processed

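Reads of stranded poly-A libraries were quality-trimmed by the authors (PRINSEQ, Trimmomatic 0.39) before alignment by STAR 2.7.7a on GRCm39 and estimation of gene counts by RSEM 1.3.3. They deposited 1 table of expected counts per gene and sample, in which 5.71% to 7.75% of values were not whole numbers, so counts were rounded. Library totals were 15177881 to 22717423, which sets the precision of the scarce members. Each sample was grouped by its title, and no pair of libraries within a group agreed within sampling noise (chi-square per degree of freedom of 36.8 or more).

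Genes with over 1 CPM in at least 2 samples (15912) were tested in AVF against sham with TMM normalization and the quasi-likelihood test of edgeR 4.0.16 in R 4.3.3, with no covariate. Genes with over 12 counts in all (22163) were tested in a fit of the 4 groups of sex and operation for the interaction and for female against male. P-values were adjusted by Benjamini-Hochberg over all genes of a fit, and the call was an adjusted p under 0.05, with 2-fold for DEG and 1.5-fold for sex. Normalized CPM are counts per 1000000 counts of the TMM-scaled library size, correlations used log2 CPM with a prior count of 1, and genes were divided by the length of the canonical transcript of GENCODE M39 to compare levels. The script was tested on simulated data. DESeq2 1.42.0, the exact test of edgeR, other normalizations and filters, sex as a covariate, a replicate block and the removal of each library were run as alternatives. The members and lists were chosen with earlier results of these data known. Named genes were the 10 members, up to 4 called genes of each list around them by lowest adjusted p, and the 3 genes most like each of the 3 members with the lowest adjusted p. Comp, Timp3, Bcan and the cell type markers are exceptions to this rule, picked once their values had been seen. The study also divided its AVF samples by their expression, and that division was not used as a grouping here. Ribosomal RNA took 2.39% to 46% of counts, and leaving it out was also run as an alternative.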

Additional observations from a re-analysis of the deposited data

Results flagged for a closer look

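In AVF sample #09, Adamts8 was at 32 CPM, apart from the other 5 AVF samples at 7.88 to 14.2 CPM. In AVF sample #06, Fn1, the gene of fibronectin, was at 5180 CPM against 2180 to 3120 CPM in the other AVF samples. In AVF sample #11, Adamts3 was at 16.8 CPM against 4.64 to 8.50 CPM. In each case the gap to the nearest sample, divided by the range of the 6 samples, was larger than Dixon's 95% limit for 6 samples. Chance passes this limit in about 1 of 20 groups, and 3 of 62 groups of samples passed it. Without #09, the log2 fold change of Adamts8 was 0.62 in place of 0.99.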

How the results depend on the processing

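Over 25 alternatives, between 5 and 6 members were higher in AVF and 0 were lower, and no member changed direction. Adamts12, Adamts2, Adamts7, Adamts4 and Adamts6 kept an adjusted p under 0.05 in all 25, the highest being 0.0474 for Adamts6 and 0.0451 for Adamts4. The sixth was Adamts8, called by the exact test of edgeR and by DESeq2 but by none of the other 23. With 1 replicate left out at a time, 3 to 5 members were DEG, 5 without sham male replicate 3 (sample #18). The genes of the 7 lists called lower, Bcan (which passed the filter in sham samples only) and Tll1, were 2, and numbered 1 with the filter of over 12 counts in all, 1 with no filter and 1 without samples #05 and #09, and 1 to 3 with each replicate left out; the cause was not tested.

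The replicate numbers of AVF and sham samples were not shown to pair them. Deviations from the group means correlated above 0.1 in 3 of 6 pairs, and 2 of 6 AVF samples correlated best with their own number. These counts carry no test, so they cannot settle whether the samples were paired. With a replicate block, 5 members were higher, 0 lower and 4 DEG, the log2 fold change of Adamts12 was 1.51 (adjusted p = 0.00109 by edgeR), and 1980 genes were called in all against 2190 without it, with 1604 in common. The sex results stayed at 0 members in all 16 alternatives for the interaction and in all 10 for each comparison of female with male mice. Taking all annotated exons as the length, added after the data were seen, lowered every level per kilobase and changed the order of Adamts4 and Adamts6 in AVF. Adamts16 had the fewest counts of the members, 1 to 47 per library, and its spread between mice was wide.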
